A study of Homo sapiens with 56 samples.

Results

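The secreted matrix glycoproteins described here are 10 genes, FN1, VCAN, LUM, SPP1, THBS1, TNC, SPARC, POSTN, TGFBI and PCOLCE, out of 18377 genes measured in ovarian cancer cell lines. They were chosen as a set of named matrix proteins, with earlier results of these data known. Where a gene has several probe sets annotated to it alone, the brightest on average stands for it, and each of the 10 had exactly 1. Total RNA of 28 ovarian cancer cell lines was hybridised to Affymetrix gene arrays, 2 arrays per line and 56 in all, in a study that ordered such lines along the epithelial-mesenchymal transition (EMT). Values are log2 signals after RMA, a method that corrects background, normalises arrays together and sums probes into 1 value.

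The lines were 10 grown in DMEM (CAOV3, CH1, DOV13, OAW28, OAW42, OVCA420, OVCA432, OVCA433, SKOV3 and TYKNU), 7 in DMEM/F12 (FUOV1, JHOS2, JHOS3, JHOS4, OV17R, OV56 and OV7) and 9 in RPMI (A2780, COLO720E, EFO21, HEY, HEYC2, OVCAR2, OVCAR3, OVCAR5 and PEO1), with TOV112D in MCDB105/M199 and UWB1.289 in RPMI/MEGM. All media held serum, at 3% for UWB1.289, 5% for OV17R, OV56 and OV7, 20% for EFO21 and OVCAR3 and 10% for the others. Insulin was added at 0.7 µg/ml for OAW28 and OAW42, and at 10 µg/ml for OVCAR2, OVCAR3, OVCAR5, OV17R, OV56 and OV7. OV17R (0.4 µg/ml) and OV56 and OV7 (0.5 µg/ml each) also received hydrocortisone. Each line is 1 culture model grown in 1 medium, so medium and line cannot be told apart. Nothing in the labels tells if the duplicates of a line are separate cultures, and p-values between lines therefore measure only the spread between these arrays, which may be technical.

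The extracellular matrix is the network of secreted proteins on which cells sit, and tumour cells as well as stromal cells can build it. Fibronectin and collagens give it structure, proteoglycans space its fibres and bind growth factors, and matricellular proteins such as osteopontin, thrombospondin-1, tenascin-C and SPARC tune how cells attach to it. Several of these genes are used as markers of stroma in tumour tissue, but the material here was cultured cancer cells. Only RNA was measured, and the secreted proteins were not.

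Array medians lay between 5.96 and 6.31. As a mark of background, 339 olfactory receptor genes, which these cells are not thought to use, had a 95th percentile of 5.45, and a signal above 5.45 on both arrays of a line is called above the mark here. PTPRC, the leukocyte surface phosphatase, was above the mark in 0 of 28 lines (line means 2.80 to 3.93). It does not stand for its list, since 2 to 4 of 8 macrophage and leukocyte markers were above the mark in each line. CD68 and TYROBP were above it in 28 lines, CD14 in 26, CSF1R in 5 and LYZ in 0. The epithelial keratins KRT8 and KRT18 were above it in 28 of 28. EPCAM, a surface protein of epithelia, was above it in 25 of 28. The first array of HEYC2, the second of OV56 and the first of OVCA420 stood apart, with an SD over genes of 1.57, 1.62 and 1.68 and a correlation with their duplicate of 0.748, 0.806 and 0.615. The number of lines above the mark was the same for each of the 10 genes without those 3 arrays, and the main counts are also given without them. A signal below the mark holds no level, so the size of a measured difference from such a signal is not known, and only a bound on it can be given. Where a bound is printed as at least a value, each array below the mark was set to the mark.

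All 10 genes differed between lines by more than their duplicate arrays did (limma moderated F test, 10 of 10 at an adjusted p under 0.05), where 65.7% of all genes tested were called. The count was also 10 without the 3 arrays, where 14829 of all genes were called, against 12069 with them. The SD of the line means was 2.77 for SPP1, and 2 of the 18377 genes had a larger one. VCAN (2.59), SPARC (2.46), FN1 (2.42), LUM (2.21), TGFBI (2.18) and THBS1 (2.03) followed, and TNC (1.52), POSTN (1.41) and PCOLCE (1.04) varied less, beside a median of 0.42 over all genes. The plot of levels by line shows 3 shapes. FN1, SPP1, VCAN, THBS1, TNC, SPARC and TGFBI were spread over a wide range. LUM and POSTN were each at background in 25 lines, with a few high lines. PCOLCE lay above the mark in all 28 lines, with most lines close together and a few higher.

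**Figure D1:**
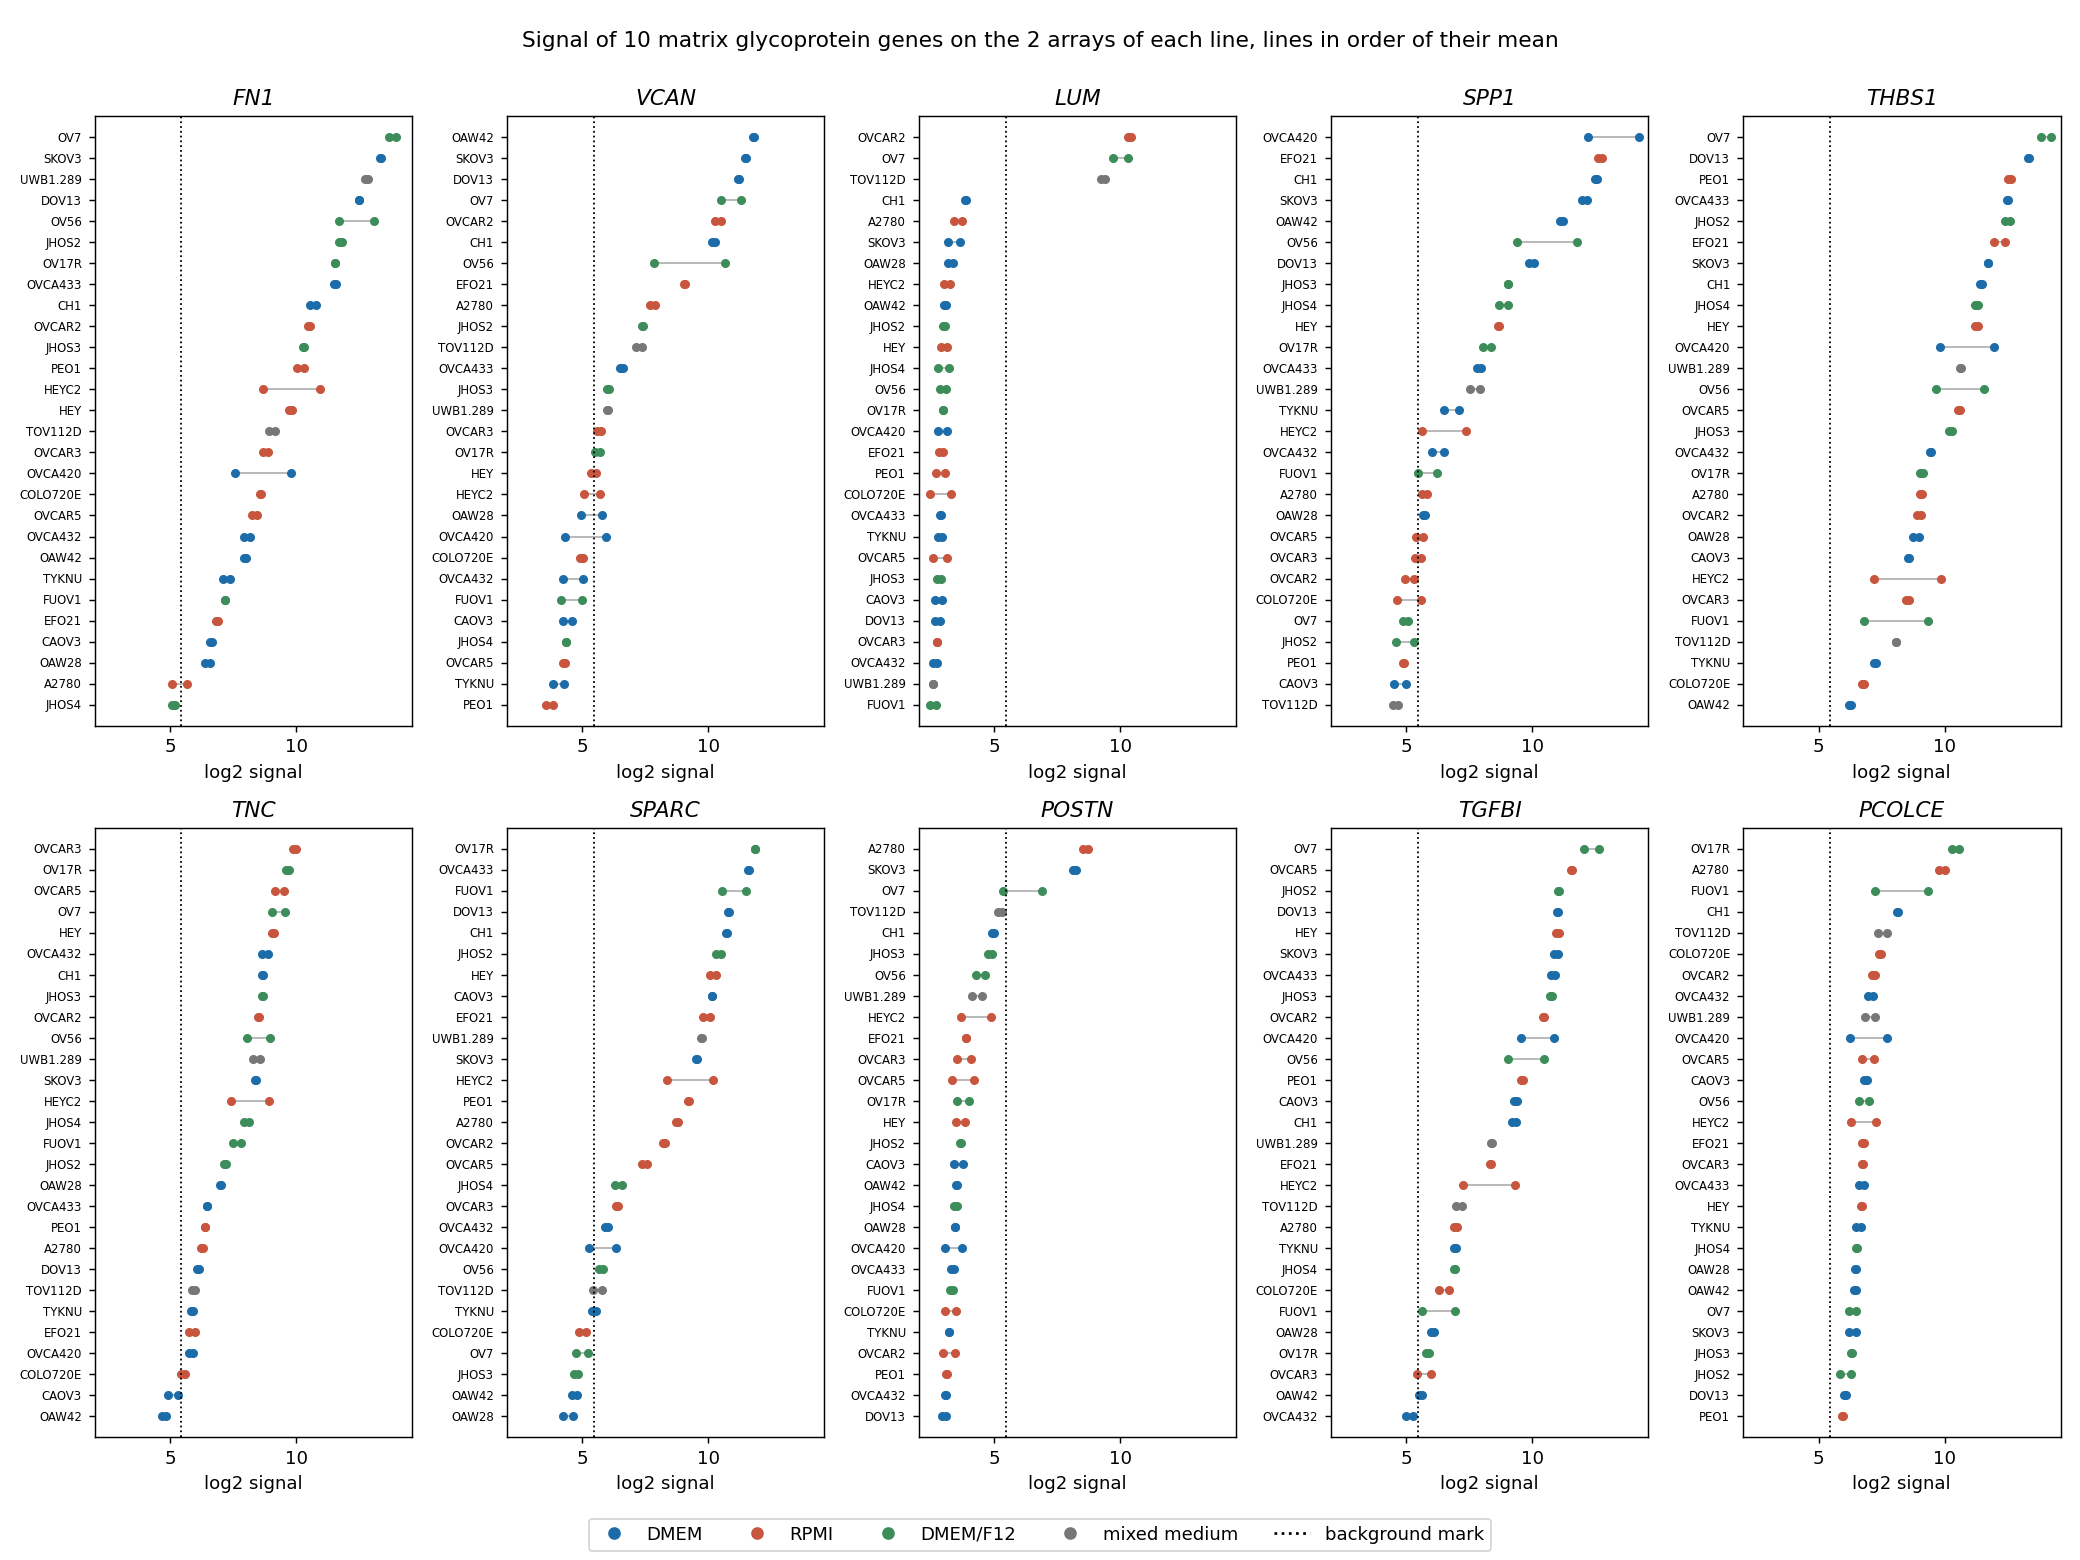
Log2 signal of each gene on both arrays (points, joined by a grey line) of each of the 28 lines, ordered by line mean from the top, with colours for the base medium and a dotted line at the background mark of 5.45. LUM has 3 lines near 10 and 25 below the mark, while THBS1 and PCOLCE lie above the mark in all 28 lines.

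FN1 encodes fibronectin, the adhesive glycoprotein that integrins bind to assemble matrix fibrils. Its signal was highest in OV7 (13.67 and 13.95), SKOV3 (13.34 and 13.37) and UWB1.289 (12.73 and 12.85), with a median of 9.42 over lines. It was lowest in JHOS4 (5.07 and 5.19), A2780 (5.68 and 5.08) and OAW28 (6.60 and 6.39). The highest line, OV7, was at least 8.36 log2 units, or 329-fold, above the lowest, JHOS4, whose arrays both lay below the mark. FN1 was thus above the mark in 26 of 28 lines, and the widest gap in its order, 1.11, separated A2780 and JHOS4 from the rest. Of the 27 neighbouring pairs of lines in that order, 14 had arrays that did not overlap and 13 overlapped, with A2780 and JHOS4 among those that overlapped. The SD between duplicates was 0.14 without HEYC2, OV56 and OVCA420 and 0.48 with them, and the 2 arrays of OVCA420 gave 7.57 and 9.81.

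VCAN encodes versican, a large chondroitin sulphate proteoglycan that binds hyaluronan. Its highest lines were OAW42 (11.79 and 11.80), SKOV3 (11.47 and 11.48) and DOV13 (11.21 and 11.16). Its lowest were PEO1 (3.85 and 3.55), TYKNU (3.85 and 4.29) and OVCAR5 (4.32 and 4.23), and the median was 5.84. Versican RNA was above the mark on both arrays of 16 lines and on neither array of 8. The remaining 4 lines had 1 array on each side of it. The widest gap, 1.26, lay between EFO21 (9.04) and A2780 (7.78), with 8 lines above it. OV56, among those 8, had 10.67 and 7.84 on its 2 arrays. Neighbours overlapped in 16 of 27 pairs.

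LUM encodes lumican, a small leucine-rich proteoglycan that regulates collagen fibril assembly. It was high in OVCAR2 (10.32 and 10.42), OV7 (10.32 and 9.71) and TOV112D (9.23 and 9.38). In the other 25 lines no array was above the mark, and the next line, CH1, had 3.86 and 3.83. The measured gap of 5.46 log2 units between TOV112D and CH1 was the widest in the order of any of the 10 genes, and with CH1 below the mark it stands for a difference of at least 3.85 log2 units, or 14.5-fold. FUOV1 (2.45 and 2.68), UWB1.289 (2.57 and 2.57) and OVCA432 (2.74 and 2.56) were lowest. Below the gap the order carries little, since 23 of 27 neighbouring pairs overlapped and the values lie in the background range. The 3 high lines grew in 3 different media, RPMI, DMEM/F12 and MCDB105/M199.

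Fibroblast markers stood beside the LUM result in part. OVCAR2, OV7 and TOV112D had 9, 8 and 10 of 11 fibroblast markers above the mark, against 5 to 8 in the other 25 lines. Their mean level over the 11 genes was 5.93, 7.30 and 7.12, against 5.35 to 6.96 in the others. DCN, decorin, a relative of lumican that fibroblasts make, had line means of 3.33 in OVCAR2, 9.03 in OV7 and 6.74 in TOV112D, and no other line had DCN above the mark. COL1A1 and COL1A2, the chains of type I collagen, were above the mark in all 28 lines. The part of such genes in the LUM result was not tested, and in bulk samples fewer cells of a kind and less RNA per cell cannot be told apart.

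SPP1 encodes osteopontin, a secreted phosphoprotein that binds integrins and CD44. It was highest in OVCA420 (12.21 and 14.23), EFO21 (12.59 and 12.77) and CH1 (12.48 and 12.56), followed by SKOV3 (11.98 and 12.16). TOV112D (4.67 and 4.48), CAOV3 (5.00 and 4.49) and PEO1 (4.91 and 4.86) were lowest. The median was 6.63. OVCA420 and EFO21 overlapped, so the top of the order is not settled. OVCA420 was at least 7.77 log2 units, or 218-fold, above TOV112D, which lay below the mark on both arrays. The widest gap within this range was 0.94, between DOV13 and JHOS3. Osteopontin RNA was above the mark in 18 lines, and 18 of 27 neighbouring pairs overlapped.

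THBS1 encodes thrombospondin-1, which inhibits vessel growth and can activate latent TGF-beta. OV7 (13.83 and 14.21), DOV13 (13.33 and 13.36) and PEO1 (12.65 and 12.51) were highest, and the median was 10.40. OAW42 (6.29 and 6.21), COLO720E (6.73 and 6.79) and TYKNU (7.29 and 7.20) were lowest, and a gap of 0.83 set these 3 below the other 25. Every line was above the mark on both arrays. PEO1 overlapped with the fourth line, OVCA433, as did 14 of 27 neighbouring pairs. Duplicates differed by 2.65 in HEYC2 (7.21 and 9.86) and by 2.52 in FUOV1 (6.82 and 9.33), although the 2 arrays of FUOV1 correlated at 0.980 over all genes.

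TNC encodes tenascin-C, an anti-adhesive hexameric protein of wounds and tumour stroma. OVCAR3 (10.01 and 9.89), OV17R (9.59 and 9.70) and OVCAR5 (9.18 and 9.53) were highest, and the median was 7.84. OAW42 (4.66 and 4.82), CAOV3 (4.91 and 5.30) and COLO720E (5.42 and 5.59) were lowest. OAW42 was thus the lowest line for TNC and THBS1 and the highest for VCAN. The widest gap for TNC was 0.53, the smallest of the 10 genes, so its levels formed a continuous series, with 15 of 27 neighbouring pairs not overlapping.

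SPARC encodes osteonectin, a collagen-binding matricellular protein. OV17R (11.86 and 11.86), OVCA433 (11.57 and 11.60) and FUOV1 (11.51 and 10.54) were highest. OAW28 (4.24 and 4.63), OAW42 (4.81 and 4.59) and JHOS3 (4.82 and 4.66) were lowest, with overlapping arrays. A gap of 1.03 between OVCAR5 (7.47) and JHOS4 (6.44) left 16 lines above and 12 below it, around a median of 8.50. OV7, the highest line for FN1, THBS1 and TGFBI, had only 5.23 and 4.75 for SPARC, below the mark. SPARC was above the mark on both arrays of 20 lines.

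POSTN and TGFBI encode periostin and TGF-beta-induced protein (big-h3), which share FAS1 domains that bind integrins. POSTN was high in A2780 (8.73 and 8.53) and SKOV3 (8.25 and 8.14), and OV7 followed with 6.90 and 5.33. DOV13 (2.91 and 3.07), OVCA432 (3.09 and 3.04) and PEO1 (3.09 and 3.11) were lowest. Periostin RNA was above the mark on both arrays of A2780 and SKOV3 only, and on neither array of 25 lines. The gap between SKOV3 and OV7 was 2.08, and 22 of 27 neighbouring pairs overlapped.

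TGFBI showed the opposite shape, with 26 of 28 lines above the mark. OV7 (12.06 and 12.65), OVCAR5 (11.51 and 11.56) and JHOS2 (11.05 and 11.00) were highest, and the median was 8.82. OVCA432 (5.25 and 4.99), OAW42 (5.60 and 5.50) and OVCAR3 (5.97 and 5.41) were lowest. A gap of 1.19 separated HEYC2 (8.28) from TOV112D (7.08), with 17 lines above it and 11 below. HEYC2 itself gave 7.26 and 9.29, so its side of the gap rests on which array is read.

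PCOLCE encodes procollagen C-endopeptidase enhancer, which speeds removal of the C-propeptide from fibrillar procollagens. OV17R (10.30 and 10.56) and A2780 (9.76 and 10.02) stood above a gap of 1.60. FUOV1 came next with 9.34 and 7.24, the largest difference between duplicates for this gene. PEO1 (5.97 and 5.94), DOV13 (6.02 and 6.10) and JHOS2 (5.86 and 6.29) were lowest, and the median was 6.77. Most lines were alike here, since 21 of 27 neighbouring pairs overlapped.

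To describe the profile of each line, it was compared with the mean of the other 27 lines, and a gene was called where it differed by at least 1 log2 unit with an adjusted p under 0.05 (limma, over all genes). Of 280 pairs of gene and line, 80 were higher and 91 lower, and 109 were not called. Without the 3 arrays that stood apart, 85 were higher and 93 lower. Over all genes and the 28 contrasts, 3.78% were higher and 3.56% lower. In number these were 37788 calls, and 36632 without the 3 arrays. SPARC was called in 25 lines, 13 higher and 12 lower, whereas LUM, POSTN and PCOLCE were each not called in 21 lines. Of the 91 lower calls, 7 were of LUM or POSTN, where the line and the mean of the other 27 both lay below the mark, so these 7 hold no order and 84 remain without them. Among the higher calls, the same held for POSTN in TOV112D (5.29 and 5.16, difference 1.11). The combination of calls over the 10 genes differed between every pair of lines, giving 28 patterns. The grid of line differences shows that the signs changed from gene to gene within most lines.

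OV7, SKOV3 and CH1 had the most genes called higher, 7 of 10 each. In OV7, where 4.41% of all genes were higher and 2.23% lower, LUM, FN1, VCAN, THBS1, TGFBI, POSTN and TNC were higher, by 6.54 (SE 0.16) for LUM at the most, against a mean of the other lines below the mark. SPARC (-3.13) and SPP1 (-2.79) were lower there. In SKOV3 (4.49% of all genes higher and 2.82% lower) the genes higher were VCAN, SPP1, POSTN, FN1, TGFBI, THBS1 and SPARC, and 0 were lower. In CH1 (3.77% higher and 2.23% lower) SPP1, VCAN, SPARC, THBS1, FN1, TNC and PCOLCE were higher and 0 were lower. The 3 lines shared VCAN, FN1 and THBS1 among their higher genes.

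At the other end, TYKNU, COLO720E and OAW28 had 0 genes higher and 6 lower each, and OVCA432 had 1 higher and 7 lower, or 5 lower without LUM and POSTN, which lay in the background range there. In TYKNU, where 3.60% of all genes were higher and 3.90% lower, THBS1 (-2.98), VCAN (-2.92), SPARC (-2.63), FN1 (-2.33), TGFBI (-1.76) and TNC (-1.66) were lower. In COLO720E (4.70% higher and 4.45% lower) THBS1 (-3.48), SPARC (-3.11), SPP1 (-2.65), TGFBI (-2.22), TNC (-2.04) and VCAN (-1.99) were lower. SPARC (-3.70), FN1 (-3.10) and TGFBI (-2.70) were the lowest against the rest in OAW28 (3.84% higher and 2.19% lower). In OVCA432 (3.46% higher and 3.01% lower), TGFBI (-3.65), VCAN (-2.36) and SPARC (-2.11) were, and TNC was higher by 1.34. Without the 3 arrays that stood apart, TYKNU and COLO720E had 7 genes lower each, OAW28 6 and OVCA432 7, and OV7, SKOV3 and CH1 again had 7 higher each. The share of all genes in each line is not given for that setting. The rebuilt EMT score described below was 0.207 in OV7, 0.540 in SKOV3 and 0.588 in CH1, and 0.408 in TYKNU, 0.422 in COLO720E, -0.461 in OAW28 and -0.147 in OVCA432, so lines with many genes lower lay on both sides of 0. The 2 arrays of OV7 gave a score of -0.119 and 0.533, so its sign rests on which array is read.

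**Figure D2:**
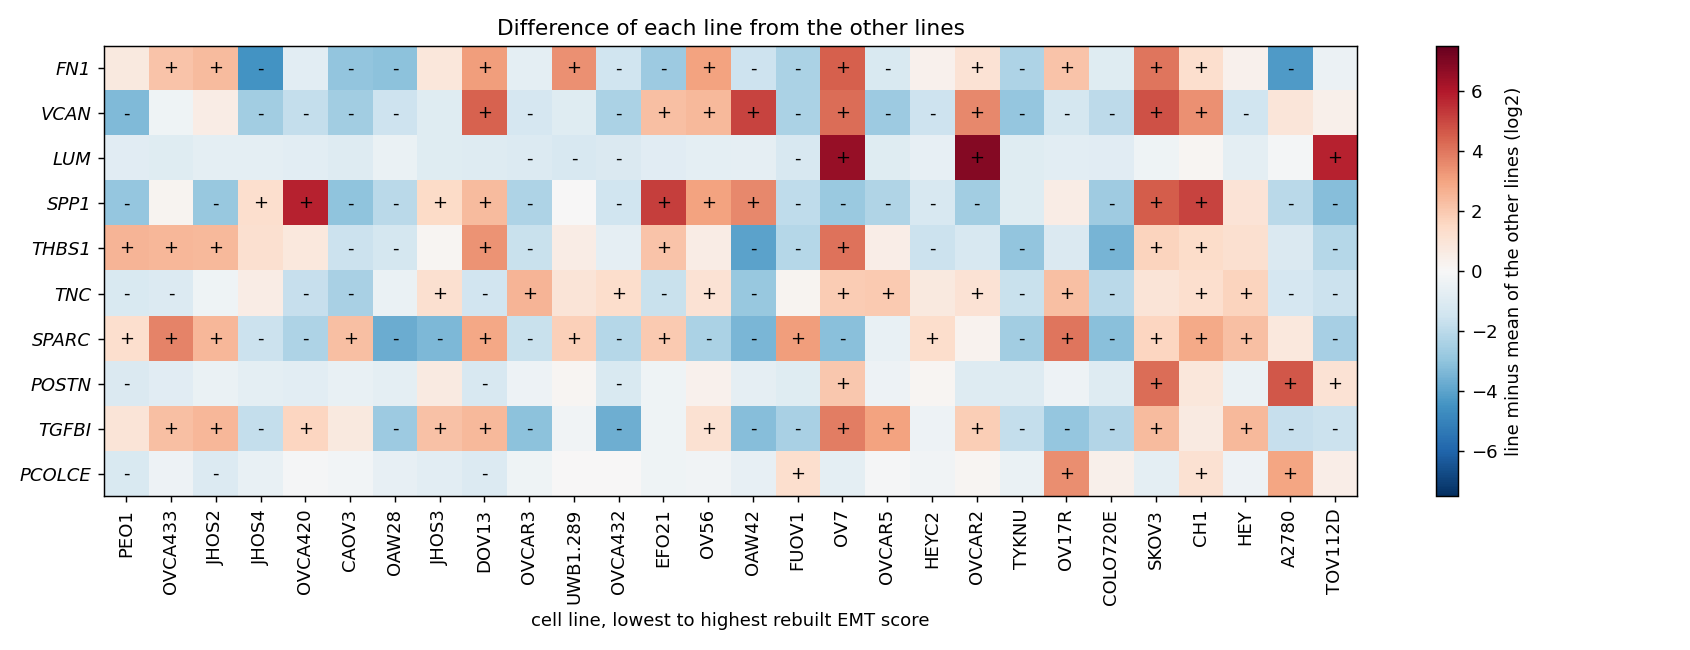
Difference in log2 signal between each line and the mean of the other 27, for the 10 genes (vertical axis) over the 28 lines (horizontal axis, by rebuilt EMT score from low to high), with + for a gene called higher and - for one called lower. LUM differs by 6.54 in OV7, and TYKNU, COLO720E and OAW28 carry only - signs.

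HEYC2 and HEY are named alike and grew in the same medium. On its second array, HEYC2 had a signal of 9.29 for TGFBI, 9.86 for THBS1 and 7.35 for SPP1, against line means of 10.99, 11.25 and 8.64 in HEY. FN1 was 10.93 in HEYC2 on that array and 9.79 in HEY. SPARC (10.18 in HEYC2 and 10.19 in HEY) and LUM (2.99 and 3.00) lay close. These differences rest on 1 array of HEYC2 and were not tested.

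Over the 28 lines the genes were related in a few pairs only. Among the 45 pairs, Pearson's r was above 0.5 in 3, below 0 in 9, and had a median of 0.16. THBS1 and TGFBI had r = 0.73 (Spearman's rho 0.69), FN1 and TGFBI r = 0.59 (rho 0.57), and FN1 and THBS1 r = 0.53 (rho 0.52). Without the 3 arrays these were 0.74, 0.61 and 0.55. Within media, the pair THBS1 and TGFBI had r = 0.81 over the 10 DMEM lines, 0.80 over the 7 DMEM/F12 lines and 0.56 over the 9 RPMI lines. FN1 and THBS1 had 0.82 in DMEM, 0.47 in DMEM/F12 and 0.03 in RPMI. PCOLCE and TGFBI had the lowest r, -0.42. These are descriptions over lines that share their medium with others and whose arrays were normalised together.

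**Figure D3:**
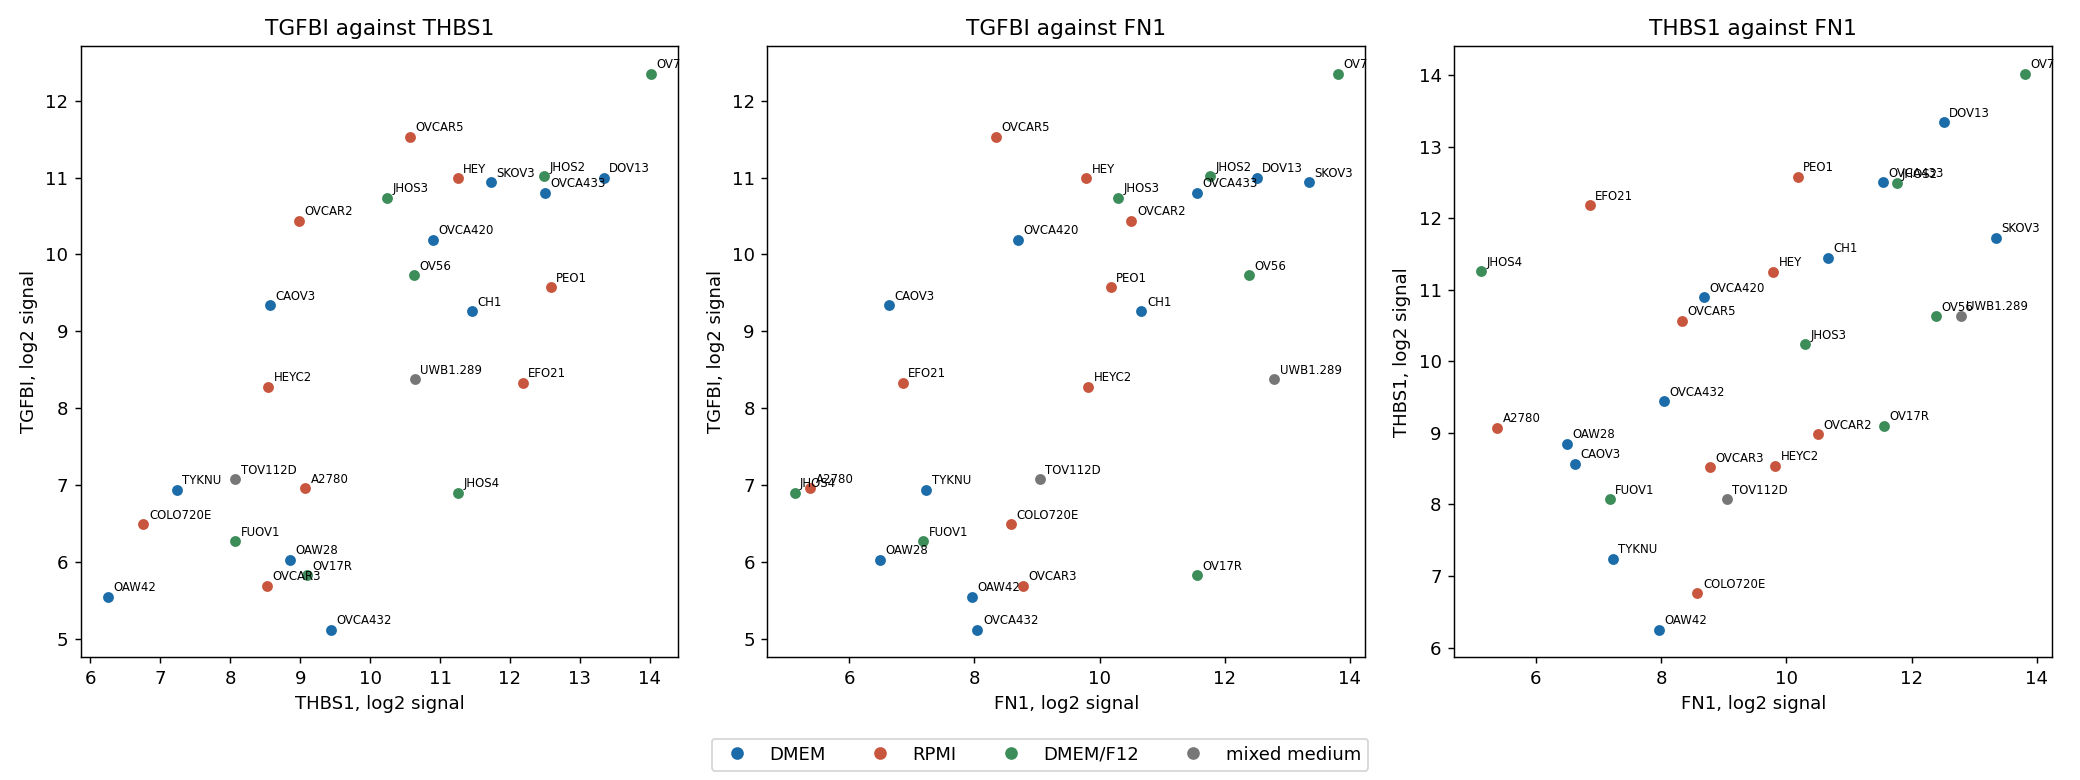
Line means (log2 signal) of TGFBI against THBS1, TGFBI against FN1 and THBS1 against FN1 for the 28 lines, coloured by base medium. OV7 is at the upper right of each panel, and the points of TGFBI against THBS1 lie closest to a line (r = 0.73).

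The start regions of FN1, THBS1 and TGFBI are shown because these 3 genes varied together over lines, with that of POSTN, which few lines used, beside them. Each runs from 250 bases before to 50 bases after the start of the gene (RefSeq, GRCh38.p14), 300 bases on the gene's strand, for FN1 at chr2:215436019-215436318, minus strand, THBS1 at chr15:39580829-39581128, plus strand, TGFBI at chr5:136028738-136029037, plus strand and POSTN at chr13:37598719-37599018, minus strand. Capitals mark the letters GGGCGG (the GC box), TATAA (part of the TATA box), CCAAT (the CCAAT box) and TGACGTCA (the cyclic AMP response element) on either strand, and neighbouring matches may overlap.
FN1: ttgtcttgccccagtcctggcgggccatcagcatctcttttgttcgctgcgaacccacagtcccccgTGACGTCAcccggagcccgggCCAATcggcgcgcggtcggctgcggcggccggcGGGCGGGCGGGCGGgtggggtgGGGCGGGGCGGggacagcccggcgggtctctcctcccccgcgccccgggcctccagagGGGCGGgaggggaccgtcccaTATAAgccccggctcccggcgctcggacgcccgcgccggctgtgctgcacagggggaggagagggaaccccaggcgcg
THBS1: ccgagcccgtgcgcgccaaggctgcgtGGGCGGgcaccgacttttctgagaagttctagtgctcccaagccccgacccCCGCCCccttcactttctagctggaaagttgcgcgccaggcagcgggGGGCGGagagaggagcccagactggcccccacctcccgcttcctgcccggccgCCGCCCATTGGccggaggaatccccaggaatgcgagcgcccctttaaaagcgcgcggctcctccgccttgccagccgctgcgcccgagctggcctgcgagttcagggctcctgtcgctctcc
TGFBI: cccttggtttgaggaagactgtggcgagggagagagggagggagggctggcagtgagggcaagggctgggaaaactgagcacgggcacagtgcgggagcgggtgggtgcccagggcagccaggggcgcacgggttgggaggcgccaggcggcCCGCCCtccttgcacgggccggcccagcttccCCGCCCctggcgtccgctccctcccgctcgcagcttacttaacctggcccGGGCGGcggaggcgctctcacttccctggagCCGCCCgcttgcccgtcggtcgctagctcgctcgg
POSTN: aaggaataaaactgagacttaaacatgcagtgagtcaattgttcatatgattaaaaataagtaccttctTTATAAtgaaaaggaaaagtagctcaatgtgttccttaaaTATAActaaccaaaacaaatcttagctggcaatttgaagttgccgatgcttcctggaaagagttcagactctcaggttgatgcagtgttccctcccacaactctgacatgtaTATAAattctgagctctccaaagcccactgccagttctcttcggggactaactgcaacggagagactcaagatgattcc
GGGCGG was found 6 times for FN1, 4 times for THBS1, 4 times for TGFBI and 0 times for POSTN. Of 35116 start regions of this length, 45.0% held it at least once and 9.06% held 4 or more. TATAA occurred 4 times for POSTN and once for FN1, the nearest starting 29 and 28 bases before the gene's start, and 20.4% of all regions held it. FN1 and THBS1 each held CCAAT once (34.6% of all regions), and FN1 alone of the 4 held TGACGTCA (1.85%). The GC content was 76.7% for FN1, 72.7% for TGFBI, 70.0% for THBS1 and 39.0% for POSTN, beside a median of 58.7%. Of the 10 genes, 9 had a start region in this table. A match is a description of the letters and no test of a factor.

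The genes most like each member over the 28 line means (Pearson's r, among all other genes) differed from member to member. TGFBI was most like AXL (r = 0.85), a receptor tyrosine kinase, then MEAK7 (0.83) and CD44 (0.82), the hyaluronan receptor. Spearman's rho was 0.86, 0.83 and 0.78 for these. THBS1 was most like the integrin subunit gene ITGA3 (r = 0.78, rho 0.76), CPA4 (0.78, rho 0.79) and F3 (0.76, rho 0.76), which encodes tissue factor. FN1 was most like GPR176 (r = 0.77, rho 0.76), PLPP4 (0.73, rho 0.68) and STAC (0.72, rho 0.71).

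For genes with few high lines, Pearson's r was in several cases well above the rank correlation. LUM was most like PRRX1 (r = 0.86, rho 0.56), a homeobox factor of mesenchyme, ANGPT1 (0.84, rho 0.55) and ABCD2 (0.83, rho 0.46). PRRX1 had line means of 7.51 in OV7, 7.17 in OVCAR2 and 6.89 in TOV112D. It was also above the mark in 2 lines with LUM in the background range, of which A2780 had the higher PRRX1 line mean, 6.53. PCOLCE was most like PYGM (r = 0.87, rho 0.59), C1orf54 (0.80, rho 0.38) and ARHGAP28 (0.78, rho 0.62). POSTN was most like TRPC4 (r = 0.75, rho 0.12), MED18 (0.74, rho 0.70) and ZNF699 (0.73, rho 0.49). In the ranks, which give the high lines no extra weight, TRPC4 had a far lower value than for r, while MED18 had nearly the same. LUM and POSTN were each above the mark on neither array of 25 lines. Their ranks thus mostly order background signals, and rho cannot decide between the genes named for them.

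The remaining genes had weaker likenesses. SPARC was most like ADAMTS12 (r = 0.72, rho 0.64), PDPN (0.65, rho 0.66) and RAB38 (0.64, rho 0.63). VCAN was most like HOXB8 (0.72, rho 0.55), LRRC17 (0.71, rho 0.68) and RBPMS (0.70, rho 0.68). SPP1 was most like NLRP4 (0.71, rho 0.66), RBPMS (0.69, rho 0.66) and TPM1 (0.69, rho 0.67), so that RBPMS was near both SPP1 and VCAN. NLRP4 had r = 0.53 with SPP1 without the 3 arrays, and its highest line mean, 5.28, was below the mark. TNC was most like LOXL1 (0.67, rho 0.65), a collagen cross-linking enzyme, NHERF2 (0.65, rho 0.68) and TRIB2 (0.61, rho 0.63).

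The study ordered its lines by an EMT score, and the next comparison asked whether the 10 genes changed along it. The score was rebuilt here from 381 mesenchymal and epithelial signature genes, 182 of them epithelial, with the 10 genes left out, and ran between -0.823 in PEO1 and 0.729 in TOV112D. The study's text gives no formula for its score, and the supplement used here lists fewer signature genes than that text counts, so the rebuilt values need not equal the study's. For PEO1 and SKOV3, whose scores the study prints, the rebuilt values lay further from 0 on the same side. The 2 arrays of a line lay on different sides of 0 for OV56, OAW42, FUOV1 (-0.337 and 0.381), OV7 and HEYC2 (-0.211 and 0.704). Of the 10 genes, 0 had a slope that passed the test (limma over 28 line means, adjusted p under 0.05), where 1.09% of all genes were called. At an unadjusted p under 0.05 there were 3 of 10 genes, PCOLCE, POSTN and LUM, and 1796 of all genes. Without the 3 arrays that stood apart, 0 of 10 passed as well, where 264 of all genes did. By rank, 1 of the 10, PCOLCE, had a Spearman's rho with the score of at least 0.5 in size, where 3.1% of all genes did. The slope of PCOLCE was 1.17 log2 units per unit of score (SE 0.36, adjusted p = 0.139, limma), that of POSTN 1.53 (SE 0.50, adjusted p = 0.178) and that of LUM 1.85 (SE 0.83, adjusted p = 0.446). POSTN and LUM were above the mark on neither array of 25 lines, so their slopes rest on few high lines and on background signals. With 1 line or replicate left out, the slope was 1.04 to 1.71 for POSTN and 1.23 to 2.10 for LUM. With all 56 arrays and the line as a random block, PCOLCE (adjusted p = 0.0124) and POSTN (adjusted p = 0.00854) were called (limma). LUM was not, and 578 of all genes were called. That fit sets 1 correlation between duplicates for all genes. The SD between and within lines was 1.41 and 0.35 for POSTN, 1.04 and 0.40 for PCOLCE, and 0.42 and 0.29 at the median over all genes. Duplicates of these 2 genes can thus count partly as separate lines, and their p-values may be too low.

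PCOLCE is among the signature genes listed in the supplement, which were drawn from expression in ovarian cancer lines, so its direction is not independent of that choice. The other 9 genes are not in the list used here, which is not complete. In the 3 lines with the lowest score, PEO1, OVCA433 and JHOS2, its line means lay between 5.96 and 6.71, and in the 3 with the highest, HEY, A2780 and TOV112D, between 6.70 and 9.89. THBS1 had a slope of -1.48 (SE 0.78, adjusted p = 0.575), with 12.49 to 12.58 in the 3 lowest-scoring lines and 8.07 to 11.25 in the 3 highest. TGFBI had -0.46 (SE 0.89) and FN1 0.16 (SE 0.99). SPARC (0.02, SE 1.00) and SPP1 (-0.03, SE 1.13) had slopes near 0 with wide errors. VCAN (1.58, SE 1.01) and TNC (0.62, SE 0.61) were not called either. FN1, often used as a mesenchymal marker, had line means of 10.18 to 11.76 in the 3 lowest-scoring lines and 5.38 to 9.79 in the 3 highest. This contrast rests on the cut at 3 lines. JHOS4, the next line in score (-0.525), had the lowest FN1 of all lines (5.13), and SKOV3 (score 0.540) had 13.35.

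**Figure D4:**
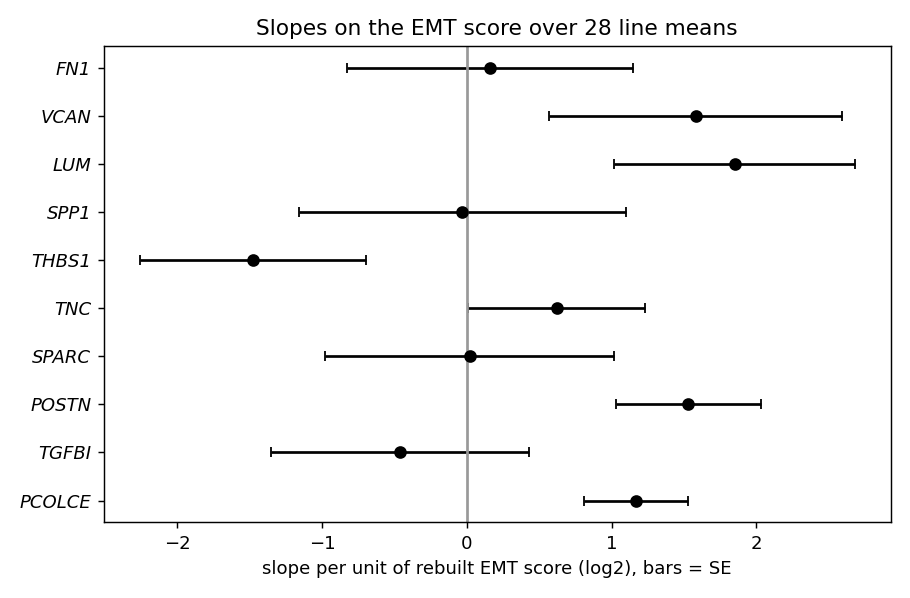
Slope of each gene's log2 signal per unit of the rebuilt EMT score over 28 line means (points) with its standard error (bars). PCOLCE (1.17), POSTN (1.53) and LUM (1.85) lie above 0 by more than 2 SE and THBS1 (-1.48) lies below 0, while SPARC and SPP1 are at 0.02 and -0.03. POSTN and LUM were each at background in 25 lines, and none of the slopes passed the test.

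Genes of the same matrix were described from lists beside these. Of 37 other matrix glycoproteins measured, 0 changed along the score, with a median slope of 0.03, beside 0.00 over all genes. Of 16 matrix proteoglycans 0 changed (median -0.01), and of 12 genes for TGF-beta ligands, receptors and matrix targets 0 changed (median -0.16). Of 25 collagens and collagen-processing genes 1 rose, PCOLCE2, the relative of PCOLCE (slope 0.92, SE 0.22, adjusted p = 0.0311, limma), with a median of 0.24. Of 16 receptors of these glycoproteins 2 fell, with a median of -0.06. They were the integrin subunit genes ITGB6 (slope -4.05, SE 0.58, adjusted p = 0.000229) and ITGB8 (-3.09, SE 0.61, adjusted p = 0.00619), whose alpha-v integrins activate latent TGF-beta. ITGB6 had line means of 8.36 to 12.06 in the 3 lowest-scoring lines and 4.69 to 5.52 in the 3 highest, which do not overlap. ITGB6 is itself one of the epithelial genes that make up the score, so its fall is set in part by how the score was built, and ITGB8 is not in the list used. Most of the epithelial markers, EPCAM, KRT7 and CDH1 among them, also entered the score, and their slopes are therefore no separate result.

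SKOV3 and PEO1 are the lines with arrays here that also served in the study's chromatin experiments. They lie far apart in the rebuilt score (0.540 in SKOV3 and -0.823 in PEO1), and less far apart in the study's own. Of the 10 genes, 6 were higher in SKOV3 than in PEO1 and 0 were lower, where 5.31% of all genes were higher and 5.46% lower. Without the 3 arrays that stood apart, 6 of the 10 were called as well. In that setting 2435 of all genes were called, against 1978 with the 3 arrays. VCAN had 11.47 and 11.48 in SKOV3, against 3.85 and 3.55 in PEO1, a difference of 7.78 (SE 0.48, adjusted p = 3.2e-14, limma). SPP1 had 11.98 and 12.16 in SKOV3, against 4.91 and 4.86 in PEO1, a difference of 7.18 (SE 0.52, adjusted p = 1.06e-12). Both genes were above the mark in SKOV3 and below it in PEO1, so these differences stand for at least 6.03 log2 units for VCAN and at least 6.62 for SPP1. The same held for POSTN, with 8.25 and 8.14 in SKOV3, against 3.09 and 3.11 in PEO1 (difference 5.09, SE 0.34, adjusted p = 1.13e-13), which stands for a difference of at least 2.74.

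FN1 was present in both lines, with 13.34 and 13.37 in SKOV3, against 10.33 and 10.02 in PEO1 (difference 3.18, SE 0.47, adjusted p = 3.37e-06, limma). TNC had 8.38 and 8.39 in SKOV3, against 6.37 and 6.38 in PEO1 (difference 2.01, SE 0.27, adjusted p = 6e-07). TGFBI had 10.86 and 11.01 in SKOV3, against 9.53 and 9.62 in PEO1 (difference 1.37, SE 0.42, adjusted p = 0.0208). The TGFBI call is the weakest of the 6, and leaving out any 1 of the 4 arrays of these lines ended it (adjusted p = 0.0778 to 0.13). The groups of 2 arrays did not overlap for any of the 6 genes. The calls came from these same arrays, so this is no separate support, and the share over all genes was not counted.

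The other 4 genes were not called. SPARC differed by 0.33 (SE 0.33), PCOLCE by 0.38 (SE 0.39) and LUM by 0.54 (SE 0.22), with LUM below the mark in both lines. THBS1 had 11.73 and 11.74 in SKOV3, against 12.65 and 12.51 in PEO1 (difference -0.85, SE 0.61, adjusted p = 0.475). Its arrays did not overlap between the 2 lines, and its SD between duplicates over all lines was 0.63. Of the lists, 10 of 37 other matrix glycoproteins were higher and 1 lower in SKOV3 than in PEO1 (median 0.27, beside -0.01 over all genes), and 9 of 25 collagen and collagen-processing genes were higher and 0 lower (median 0.71).

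**Figure D5:**
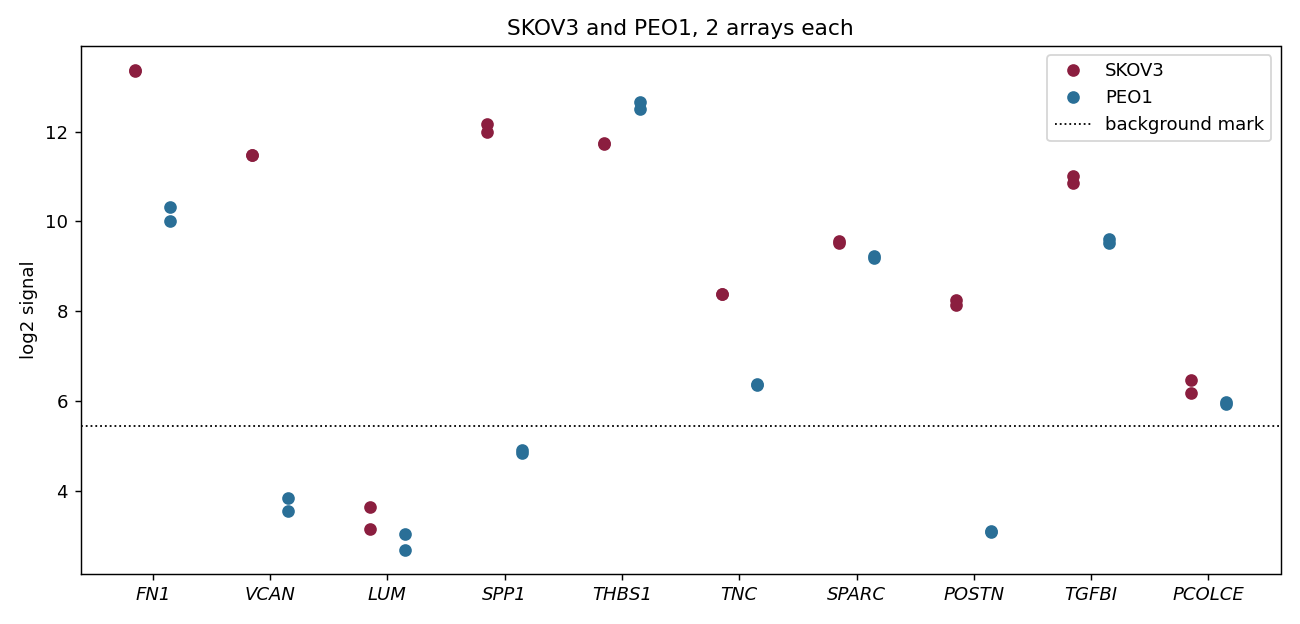
Log2 signal of the 10 genes on the 2 arrays of SKOV3 (left of each pair) and PEO1 (right), with the background mark of 5.45 as a dotted line. VCAN, SPP1 and POSTN are above the mark only in SKOV3, and THBS1 is the gene whose points are higher in PEO1.

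Lines were also compared by base medium, over line means and over all genes. For DMEM against RPMI, 0 of 10 genes were called (0% of all genes), and 0 of 10 and 505 of all genes had an unadjusted p under 0.05 (limma). For DMEM/F12 against RPMI, 0 of 10 were called (0% of all genes), with 0 of 10 and 402 of all genes at an unadjusted p under 0.05. For DMEM/F12 against DMEM, 0 of 10 were called (0% of all genes), with 1 of 10 and 316 of all genes at an unadjusted p under 0.05. That gene was TNC, with a lowest, median and highest line mean of 7.18, 8.50 and 9.64 in DMEM/F12, against 4.74, 6.27 and 8.76 in DMEM (difference 1.73, SE 0.68, adjusted p = 1). The ranges of the 2 media overlapped.

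SPP1 had a lowest, median and highest line mean of 4.75, 8.92 and 13.22 in DMEM, against 4.89, 5.52 and 12.68 in RPMI (difference 2.40, SE 1.18, adjusted p = 1, limma). Each range nearly covered the other. A difference in slope on the EMT score between the 3 media passed the test for 0 of the 10 genes (0.00544% of all genes were called, and 0 of 10 and 522 of all genes had an unadjusted p under 0.05). PCOLCE had slopes of 0.37 in DMEM, 3.14 in DMEM/F12 and 1.45 in RPMI (unadjusted p = 0.0579, adjusted p = 1, limma).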

How the data were processed

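Total RNA of 28 ovarian cancer cell lines was measured on 56 arrays. The deposited table holds log2 signals that the authors made with RMA, naming affy 1.42.3 in their processing notes. RMA normalises all arrays together, so a value depends on the other arrays. The table held 28869 probe sets, 19310 of them annotated to 1 gene, 1752 to several and 7807 to none, giving 18377 genes; where a gene had several (685 genes), the brightest on average stood for it. No reads were counted, so the number of arrays limits the precision.

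Tests were run in R 4.3.3 with limma 3.58.1 (lmFit, eBayes with trend and robust) over all genes, with Benjamini-Hochberg adjustment. Differences between lines, each line against the other 27, and SKOV3 against PEO1 used a mean per line over all arrays. A call needed an adjusted p under 0.05 and, between lines, at least 1 log2 unit. The slope on the EMT score and the contrasts of media used the 28 line means. The score was a signed Kolmogorov-Smirnov statistic of mesenchymal against epithelial genes named in the study's supplement (381 genes, 182 of them epithelial), each centred on its median over lines; 382 of 420 listed genes were measured. The study's text counts more signature genes and gives no formula for its score. Random blocks used statmod 1.5.0. The fits were tested on simulated data.

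Named genes were the 10 members, the 3 genes with the highest r for each, list genes that passed the test along the score, and for each member its 3 highest and 3 lowest lines and those at its widest gap. Members and lists were chosen with earlier results of these data known. Alternatives were averaging probe sets, quantile normalization, leaving out arrays or lines, a filter at a highest line mean of 6, eBayes without trend and robust, other scores, and blocks.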

Additional observations from a re-analysis of the deposited data

Results flagged for a closer look

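Within each of the 3 media, the highest and lowest line for each gene was compared with its nearest neighbour, relative to the range of that medium (Dixon's test at 95%). In 7 of 30 groups of lines a line stood apart, where the nominal rate of the test is about 1 in 20. The share over all genes was not counted, so the 7 are a description and say nothing particular about these genes. For LUM and POSTN the next line lay below the background mark. The lines in a group are different lines and not replicates. LUM in OV7 had 10.02, against 3.01 in the next DMEM/F12 line, and LUM in OVCAR2 had 10.37, against 3.55 in the next RPMI line. POSTN in SKOV3 had 8.19, against 4.96 in the next DMEM line, and POSTN in A2780 had 8.63, against 4.27 in the next RPMI line, HEYC2, whose arrays gave 4.86 and 3.67. PCOLCE in A2780 had 9.89, against 7.44 in the next RPMI line, and PCOLCE in CH1 had 8.14, against 7.07 in the next DMEM line. SPP1 in EFO21 had 12.68, against 8.64 in the next RPMI line. None of these 7 values came from the 3 arrays that stood apart.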

How the results depend on the processing

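All 10 genes differed between lines under every alternative run, and with any 1 array left out the count was 10 to 10. Of all genes, 12069 were called in the main fit and 11159 to 16620 in the alternatives. SKOV3 against PEO1 gave 6 genes under every alternative that kept the 4 arrays of these lines, and 5 to 5 when 1 of them was left out. Of all genes, 1978 were called in the main fit and 1831 to 3143 under those alternatives. With 1 of the 4 arrays left out, 1674 to 1725 of all genes were called. The 171 calls of a gene in a line became 105 with a minimum of 2 log2 units, and 168 to 181 with any 1 array left out. Over all genes, 37788 calls became 7069 at that minimum and 37025 to 46870 with 1 array left out. Along the EMT score, 0 genes became 2 with the line as a random block, where 578 of all genes were called. That fit can count their duplicates partly as separate lines. By rank, 1 gene, PCOLCE, had a rho of at least 0.5 in size, as did 3.1% of all genes. With a line or a replicate left out the count was 0 to 0, as it was for the 3 contrasts of media and for the slopes by medium. Along the score, 117 to 217 of all genes were called in those fits. Slopes near 0 changed sign. SPP1 had a slope of 0.60 with base medium as a covariate and -0.59 to 0.48 with 1 line or replicate left out. SPARC had -0.16 with HEY and HEYC2 as 1 line, -0.05 with base medium as a covariate, and -0.29 to 0.45 with 1 line or replicate left out. FN1 had -0.26 to 0.77 there. The cause of these changes was not tested. Each member had 1 probe set, so averaging probe sets changed only the other genes.

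The replicate numbers did not pair the arrays. The differences between duplicates correlated between -0.89 and 0.87 over 378 pairs of lines, above 0.1 in 91. With the replicate block the counts were 10 genes between lines, 171 calls in lines and 6 genes for SKOV3 against PEO1. Over all genes they were 11917, 37624 and 1968.

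With 2 arrays per line, the spread is known mainly from all lines together, and signals near the background mark hold no order.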
